A study of Mus musculus with 18 samples.

Results

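The nuclear-encoded subunits of the respiratory chain and ATP synthase were examined in 18 liver libraries from female mice. Members were the rows of the deposited table of 37620 genes whose symbols start with Nduf, Sdh, Uqcr, Cox4 to Cox8 or Atp5 in the form used for subunits, with at least 10 counts over all libraries. The pattern matched 94 symbols; Atp5l2-ps was left out for its ending, and Cox7b2, Cox8c and Cox6a2 for totals of 0, 1 and 8 counts. That left 90 members, of which 38 belong to complex I, 4 to complex II, 10 to complex III, 18 to complex IV and 20 to complex V. Ndufa4 and Ndufa4l2 were counted under complex IV, since Ndufa4 is now placed there. The gene annotation used for names and lengths lists 9 members as pseudogenes (Ndufa11b, Ndufb4c, Ndufs6b, Uqcrh-ps1, Uqcrh-ps2, Cox6c2, Atp5k-ps2, Atp5l-ps1 and Atp5l-ps2); their counts may hold reads of the parent genes. Just inside the limit of 10 counts stood Cox4i2 with 20, Atp5k-ps2 with 24, Cox8b with 32 and Cox6b2 with 58.

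The respiratory chain passes electrons from NADH through complex I, or from succinate through complex II, to coenzyme Q, then through complex III and cytochrome c to complex IV, where oxygen is reduced. Complexes I, III and IV pump protons across the inner mitochondrial membrane, and complex V, the ATP synthase, uses their return to make ATP. Most subunits are encoded in the nucleus and imported, while a small core of every complex except complex II comes from the mitochondrial genome; hepatocytes hold many mitochondria and depend on this chain for gluconeogenesis and urea synthesis.

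The groups were 6 libraries from ouabain-treated old mice, 6 from old mice on vehicle (labelled as saline) and 6 from young mice that the labels describe as untreated. Ouabain, a cardiac glycoside, inhibits the Na,K-ATPase, the pump that holds the sodium gradient of cells. Old mice were 24 months of age at sampling and came from a cohort of 16 that entered treatment at 21 to 22 months; ouabain was dosed at 1 mg/kg, 4 times a week, in rounds separated by 2 weeks of rest over 12 weeks, and livers were collected 3 days after the final round. Young mice were 7 weeks of age, so age, handling and injection differ together in every comparison with them. The sources used here do not give the strain, or which of the 16 old mice the 12 old libraries came from. The labels do not say that each library came from a separate animal, so p-values measure the spread between these libraries.

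The shallowest library, old ouabain replicate 5, had 4201251 counts, the next 7527846 and the deepest 11113307. A count of 0 allows up to 3 counts, which is 0.27 to 0.714 counts per 1000000 counts (CPM), counting error only. All 10 hepatocyte markers were detected, and their summed level was 106562 to 132445 CPM in ouabain livers, 95836 to 144156 CPM in vehicle livers and 105689 to 157229 CPM in young livers. In whole liver RNA, fewer cells of a type and less RNA per cell cannot be told apart. Members together took 1.41% ± 0.0743 of all counts in ouabain livers, 1.29% ± 0.0994 in vehicle livers and 1.28% ± 0.133 in young livers (SD, n = 6 each).

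Of the 90 members, 86 had enough counts to be tested, and the 4 others were Cox4i2, Cox6b2, Cox8b and Atp5k-ps2. Per kilobase of exon, the mean level over all 18 libraries was highest for Cox6a1, a liver-type subunit of complex IV, at 331 CPM per kb. Cox6b1 followed at 325, Cox4i1 at 301 and Atp5a1, the alpha subunit of ATP synthase, at 289 CPM per kb. The median over tested genes other than pseudogenes was 62.9 CPM per kb in complex I (35 genes), 103 in complex II (4 genes), 164 in complex III (8 genes), 110.0 in complex IV (14 genes) and 83.7 in complex V (17 genes). At the low end stood Ndufa4l2 at 2.04, Atp5s at 2.67 and Cox7a1 at 3.37 CPM per kb. Lengths were the union of all annotated exons, which can exceed a transcript, so these ranks and medians depend on the annotation. In total counts Atp5b, the beta subunit of ATP synthase, had 179811 and Cox6a1 39334.

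The tissue-specific isoforms of complex IV were scarce in every group. Cox4i2, the lung-type and oxygen-responsive partner of Cox4i1, had 6 counts in all ouabain livers, 8 in vehicle livers and 6 in young livers. Cox6b2, a testis isoform, had 20, 22 and 16 counts in ouabain, vehicle and young livers. Cox8b, a heart and muscle isoform, had 16 counts in ouabain livers, 16 in vehicle livers and 0 in young livers; 10 of the ouabain counts lay in replicate 2 and 9 of the vehicle counts in replicate 3. Cox8b reads were spread over 3 of 6 ouabain and 4 of 6 vehicle libraries, and the filter left the gene out of the test. Fitted by edgeR with no filter, Cox8b had an adjusted p of 0.983 for ouabain against vehicle, 0.104 for vehicle against young and 0.270 for ouabain against young. Cox7a1, the heart and muscle partner of Cox7a2, was at 1.94 ± 0.399 CPM in ouabain livers, 1.66 ± 0.566 CPM in vehicle livers and 1.82 ± 0.419 CPM in young livers, while Cox7a2 was at 139 ± 8.92, 120 ± 14.5 and 138 ± 20.1 CPM in the same groups. The summed level of 7 muscle markers was 21.0 to 47.6 CPM in ouabain livers, 26.9 to 60.5 CPM in vehicle livers and 25.2 to 127 CPM in young livers, and its part in these counts was not tested.

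The first comparison asks how ouabain altered these transcripts in the old liver. The data show 5 genes that passed the test, all higher in ouabain livers: Uqcrc1, Atp5g1, Ndufv1, Cox5b and Ndufa10, spread over complexes I, III, IV and V, with increases of 19.2% to 30.3%. These are 5 of 86 members (5.81%) at an adjusted p under 0.05 in edgeR's quasi-likelihood test, where 1.84% of all 14226 genes tested were called and 0.991% were called higher. No member was called lower (0.851% of all genes) by edgeR or in any other setting run, and 1 of 86 was lower at an unadjusted p under 0.05 (Atp5s) against 26 higher, together 31.4% of members beside 20.1% of all genes. The fitted log2 fold change was above 0 for 81 of 86 members, with a median of 0.16, beside 48.6% and -0.01 over all genes tested. Other genes of at least 5 in mean log2 CPM had 58.2% above 0 and a median of 0.03. With vehicle replicate 4 and ouabain replicate 5 left out, the libraries that stood apart in macrophage markers and in depth, 0 members were called (0.595% of all genes), and the members' median was 0.13.

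Uqcrc1 (ENSMUSG00000025651, chromosome 9), a core protein of complex III on the matrix side, had 209, 235, 245, 223, 222 and 229 CPM in the 6 ouabain livers, against 166, 183, 175, 158, 160 and 204 CPM in the 6 vehicle livers. Every ouabain library lay above every vehicle library. The log2 fold change was 0.38 (SE 0.07, adjusted p = 0.0138). It was the steadiest of the 5, called after leaving out each of the 18 libraries in turn (adjusted p up to 0.0460) and in 11 of 12 other settings, the exception being the fit without both libraries that stood apart (adjusted p = 0.0531). Its partner Uqcrc2 was at 190 ± 11.7 CPM in ouabain livers and 182 ± 25.2 CPM in vehicle livers (log2 fold change 0.06, adjusted p = 0.763).

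Atp5g1 (ENSMUSG00000006057, chromosome 11) is one of 3 genes that encode the same mature c subunit, the proton-carrying ring of ATP synthase. It had 141, 160, 150, 143, 142 and 144 CPM in ouabain livers, against 113, 121, 109, 109, 120 and 126 CPM in vehicle livers, without overlap. The log2 fold change was 0.33 (SE 0.08, adjusted p = 0.0326). The other genes of the ring were not called: Atp5g2 was at 72.5 ± 3.14 CPM in ouabain and 71.7 ± 11.9 CPM in vehicle livers, and Atp5g3 at 466 ± 19.1 and 425 ± 61.2 CPM in the same groups. The difference between these genes in their response was not tested.

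Ndufv1 (ENSMUSG00000037916, chromosome 19) carries the flavin and the NADH-binding site through which electrons enter complex I. Its levels were 174, 203, 181, 175, 186 and 177 CPM in ouabain livers, against 155, 148, 144, 153, 130 and 154 CPM in vehicle livers, again without overlap (log2 fold change 0.31, SE 0.07, adjusted p = 0.0327). Ndufa10 (ENSMUSG00000026260, chromosome 1), an accessory subunit of complex I, had 130, 135, 132, 141, 133 and 129 CPM in ouabain livers, against 114, 117, 112, 99.9, 106 and 123 CPM in vehicle livers. The groups did not overlap, and the log2 fold change was 0.25 (SE 0.07, adjusted p = 0.0487). Cox5b (ENSMUSG00000061518, chromosome 1), the zinc-binding subunit of complex IV, had 141, 169, 158, 153, 146 and 160 CPM in ouabain livers, against 142, 127, 109, 120, 118 and 132 CPM in vehicle livers, where only vehicle replicate 1 reached into the ouabain range (log2 fold change 0.31, SE 0.08, adjusted p = 0.0435). Calls for these genes were close to the threshold: of 18 fits that left out 1 library, Atp5g1 was called in 9, Ndufv1 in 9, Cox5b in 5 and Ndufa10 in 4, with adjusted p up to 0.0910, 0.0838, 0.108 and 0.122.

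**Figure D1:**
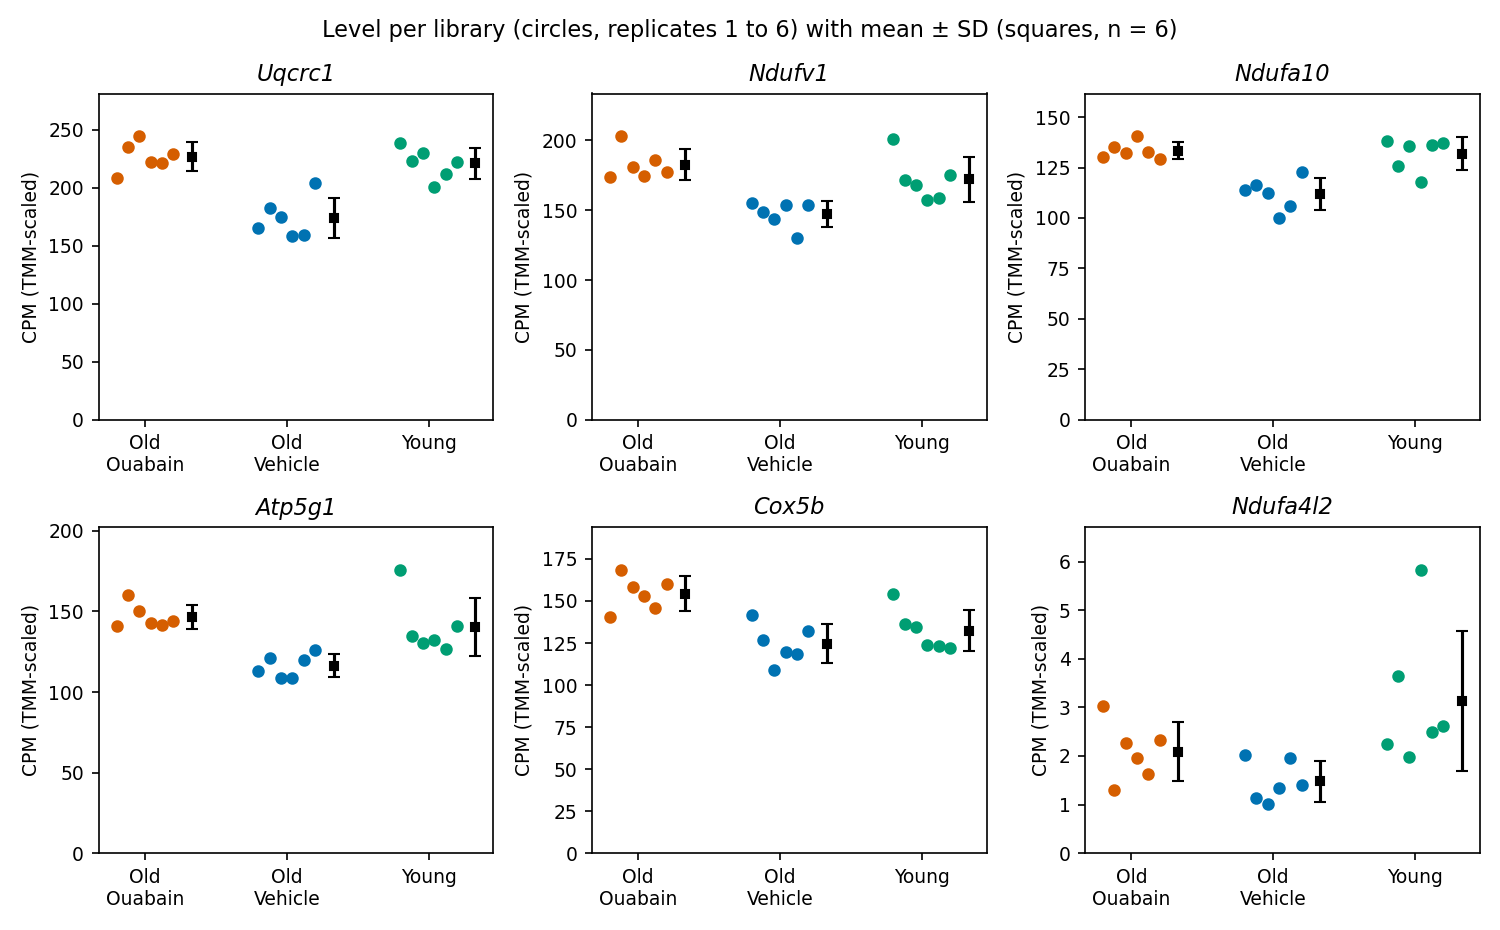
Level in CPM (TMM-scaled, linear axis from 0) of 6 members in each of 18 livers, with old ouabain at left, old vehicle in the middle and young at right; circles are replicates 1 to 6 and squares the mean with SD. Uqcrc1, Ndufv1, Ndufa10 and Atp5g1 show all 6 ouabain livers above all 6 vehicle livers, while Cox5b overlaps in 1 vehicle library and Ndufa4l2 stays at or below 5.84 CPM.

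Promoter windows are shown for Uqcrc1, the steadiest call, and for Ndufv1 and Atp5g1, the next by number of fits that called them. They are from RefSeq on the mouse assembly GRCm38.p6, each running from 250 bases before to 50 bases after the annotated start. Capitals mark matches to the palindromic core of the site bound by NRF1, a regulator of many respiratory chain genes, with its middle base left free on either strand. The Uqcrc1 window is at chr9:108936398-108936697 on the plus strand, the Ndufv1 window at chr19:4012706-4013005 on the minus strand and the Atp5g1 window at chr11:96075582-96075881 on the minus strand.
Uqcrc1: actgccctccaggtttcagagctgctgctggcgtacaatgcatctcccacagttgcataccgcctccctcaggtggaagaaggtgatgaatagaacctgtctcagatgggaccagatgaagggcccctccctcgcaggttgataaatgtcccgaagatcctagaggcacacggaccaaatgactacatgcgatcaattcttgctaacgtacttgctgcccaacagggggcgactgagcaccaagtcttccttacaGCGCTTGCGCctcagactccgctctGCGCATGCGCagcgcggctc
Ndufv1: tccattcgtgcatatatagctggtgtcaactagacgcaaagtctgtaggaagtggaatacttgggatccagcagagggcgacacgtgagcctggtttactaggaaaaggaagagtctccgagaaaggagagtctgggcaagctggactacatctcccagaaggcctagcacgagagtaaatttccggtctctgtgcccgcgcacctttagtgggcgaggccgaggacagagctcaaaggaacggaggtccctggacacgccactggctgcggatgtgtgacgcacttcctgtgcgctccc
Atp5g1: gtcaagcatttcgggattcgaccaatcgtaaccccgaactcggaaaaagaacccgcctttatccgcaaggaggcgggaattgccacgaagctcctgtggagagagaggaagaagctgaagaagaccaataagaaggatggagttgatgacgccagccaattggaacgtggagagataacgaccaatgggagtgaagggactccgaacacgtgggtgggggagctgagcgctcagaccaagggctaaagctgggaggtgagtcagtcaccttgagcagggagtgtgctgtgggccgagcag

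Uqcrc1 held 2 matches, GCGCTTGCGC (matched on the opposite strand) and GCGCATGCGC, both within the 50 bases after the start, and the Ndufv1 and Atp5g1 windows held none. A window was found for 67 of 90 members, and 17 of these (25.4%) held the motif, beside 11.3% of 9750 genes tested with a window and 5.19% of all 27025 genes with one. A gene with more than 1 window counted if any window held the letters. By complex, the motif was in 7 of 31 members of complex I with a window, 2 of 3 of complex II (Sdha and Sdhd), 1 of 5 of complex III, 1 of 13 of complex IV (Cox6a1) and 6 of 15 of complex V. CCGGAAG, bound by factors of the ETS family, was in 16 of 67 members (23.9%) beside 19.6% of genes tested with a window, and AAGATGGCG, bound by YY1, in 7 (10.4%) beside 3.59%. For ouabain against vehicle, the median log2 fold change was 0.16 in the 17 members with the NRF1 letters and 0.18 in 48 tested members without them. A match is a description of letters and not a site shown to be used.

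By role, all 28 accessory subunits of complex I other than pseudogenes had fitted values above 0 (median 0.17, 1 called, Ndufa10), as did 6 of 7 nuclear core subunits (median 0.24, 1 called, Ndufv1). Ndufs7, which holds the last iron-sulphur cluster before coenzyme Q, was at 88.0 ± 9.68 CPM in ouabain livers and 71.0 ± 7.81 CPM in vehicle livers (log2 fold change 0.31, adjusted p = 0.102). Ndufs1, the largest core subunit, was at 114 ± 5.45 CPM in ouabain livers and 115 ± 12.7 CPM in vehicle livers (log2 fold change -0.01, SE 0.09). Fitted values of the 7 core subunits ran from -0.01 to 0.31, and the differences among them were not tested.

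Complex II, which has no mitochondrially encoded subunit, had 0 of 4 genes called by edgeR (1 of 4 at an unadjusted p under 0.05) and a median log2 fold change of 0.11. Sdhb, the iron-sulphur subunit, was at 230 ± 23.4 CPM in ouabain and 193 ± 16.2 CPM in vehicle livers (log2 fold change 0.26, adjusted p = 0.147). Sdha, the flavin-bearing subunit, was at 478 ± 18.1 and 436 ± 41.8 CPM in the same groups, and the membrane anchor Sdhc at 198 ± 6.06 and 188 ± 23.3 CPM. The second anchor, Sdhd, was at 212 ± 9.07 CPM in ouabain livers and 214 ± 34.9 CPM in vehicle livers, the lowest fold change of the complex at -0.01.

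In complex III, all 10 members had fitted values above 0 (median 0.12), from 0.05 for Uqcrh, the acidic hinge subunit at cytochrome c1, to 0.38 for Uqcrc1. Uqcrfs1, the Rieske iron-sulphur protein, had 195 to 226 CPM in ouabain livers (median 206) and 162 to 227 CPM in vehicle livers (median 182), with overlap (adjusted p = 0.359). Cyc1, the cytochrome c1 subunit, is not a member because of its symbol; it was at 157 ± 9.86 CPM in ouabain and 127 ± 16.9 CPM in vehicle livers (log2 fold change 0.30, adjusted p = 0.0600). Complex IV likewise had all 15 tested members above 0 (median 0.17). Cox6a1 was at 261 ± 22.5 CPM in ouabain and 208 ± 15.5 CPM in vehicle livers, with no overlap between the groups (log2 fold change 0.33, adjusted p = 0.0728). Cox4i1 was at 493 ± 22.0 and 428 ± 32.3 CPM, Cox5a at 237 ± 16.2 and 210 ± 30.9 CPM, Cox6b1 at 250 ± 20.1 and 222 ± 21.5 CPM, and Cox8a at 134 ± 6.57 and 123 ± 23.6 CPM in ouabain and vehicle livers. The smallest fitted value of complex IV was that of Cox7a2l, a factor for joining complexes III and IV, at 83.6 ± 6.74 CPM in ouabain and 81.2 ± 3.93 CPM in vehicle livers (log2 fold change 0.04, SE 0.08).

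In complex V, the catalytic F1 head had a median log2 fold change of 0.19 over 5 genes, the c ring 0.14 over 3, the peripheral stalk 0.10 over 4 and the small membrane subunits 0.17 over 4, and all 16 of these genes were above 0. Atp5b, the catalytic beta subunit, was at 1094 ± 37.9 CPM in ouabain livers and 959 ± 83.6 CPM in vehicle livers (log2 fold change 0.19, adjusted p = 0.197). Atp5a1 was at 936 ± 39.0 and 842 ± 81.6 CPM in the same groups (adjusted p = 0.272). Atp5e, the epsilon subunit, had the largest fitted value of the complex at 0.35 (SE 0.16, adjusted p = 0.239), with 281 ± 56.7 CPM in ouabain and 221 ± 13.8 CPM in vehicle livers. The members of complex V below 0 were Atp5s and the pseudogenes Atp5l-ps1 and Atp5l-ps2; Atp5s, a coupling factor B-like protein that is not part of the purified enzyme, had a log2 fold change of -0.30 (adjusted p = 0.217). Over all complexes, 7 members had every ouabain library above every vehicle library (Uqcrc1, Ndufv1, Ndufa10, Ndufa12, Cox6a1, Atp5g1 and Atp5o), beside 1.12% of all genes tested, and 0 had the reverse, beside 0.928%.

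**Figure D2:**
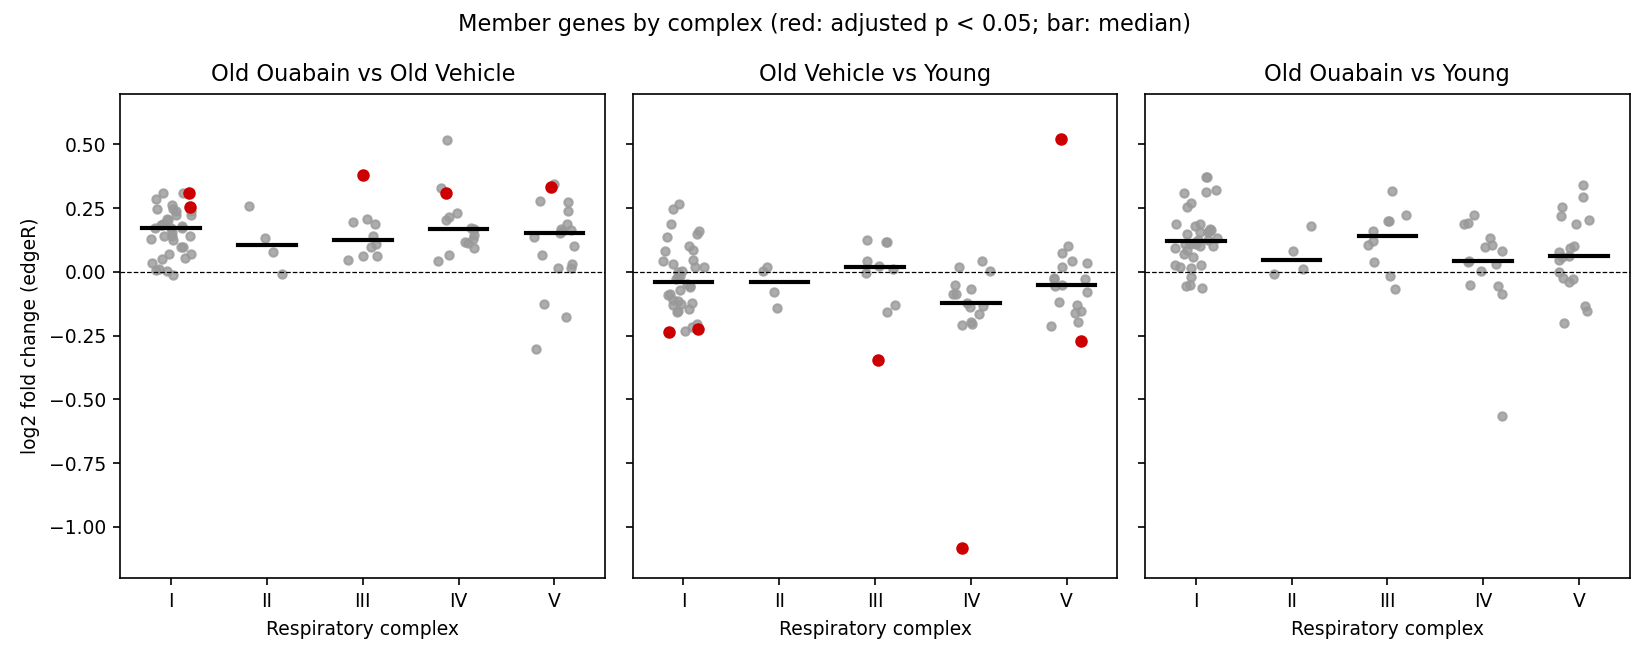
Fitted log2 fold change (edgeR) of the 86 tested members by complex, for old ouabain over old vehicle, old vehicle over young and old ouabain over young; grey points are genes that were not called, red points genes at an adjusted p under 0.05 and bars the median. In the first panel 81 of 86 points lie above 0 with complex medians of 0.11 to 0.17, in the second the medians lie between -0.12 and 0.02, and in the third no point is red.

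Libraries differed in many members at once. Summed over the 86 genes, ouabain livers had 13422 to 15240 CPM (median 13856), vehicle livers 11294 to 14283 CPM (median 12476) and young livers 12106 to 15630 CPM (median 12939). Counting the members above their own median of all 18 libraries gave 68, 79, 70, 49, 64 and 56 of 86 in the ouabain livers, 66, 16, 17, 3, 32 and 45 in the vehicle livers and 78, 40, 25, 23, 16 and 27 in the young livers. Vehicle replicate 1 and young replicate 1 lay in the range of ouabain livers, and vehicle replicates 2, 3 and 4 were low. Young replicate 1 was the highest of all 18 libraries in 41 members and the highest young library in 72. Vehicle replicate 4 was the lowest of all 18 in 26 members.

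Markers of other cells also differed between these libraries, though not always in step with the members. The summed level of 6 Kupffer cell markers was 254 to 710 CPM in ouabain livers, 315 to 1367 CPM in vehicle livers and 179 to 274 CPM in young livers, and within the vehicle group it was 822, 794 and 1367 CPM in replicates 2, 3 and 4, against 329, 334 and 315 CPM in replicates 1, 5 and 6. Ouabain replicate 2 went the other way, with the highest sum of its group (710 CPM) and the most members above their median (79 of 86). The sum of 8 monocyte-derived macrophage markers was 102 to 275 CPM in ouabain, 164 to 437 CPM in vehicle and 62.0 to 91.1 CPM in young livers, and ouabain replicate 2 was again the highest of its group at 275 CPM. Of these 8, 4 were called lower in ouabain against vehicle livers (0.851% of all genes) and 8 higher in vehicle against young livers (10.9%). Their part in the members' values was not tested.

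**Figure D3:**
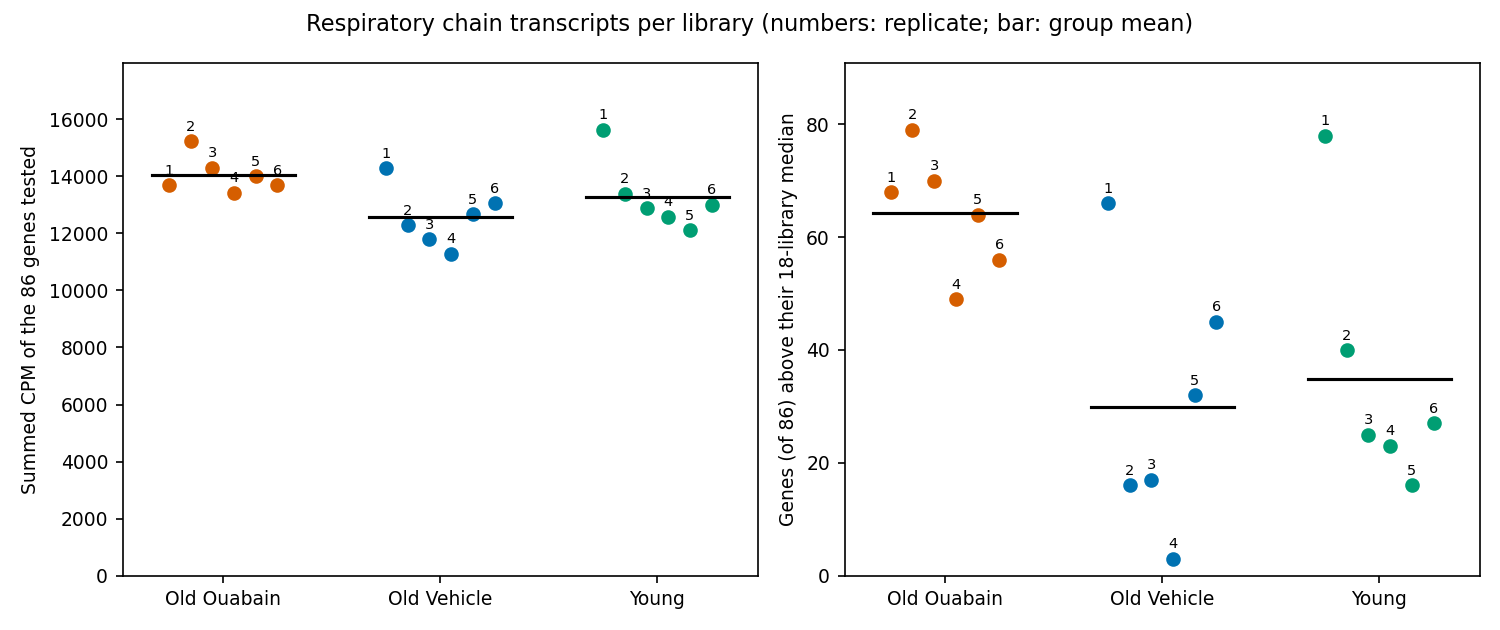
Summed CPM of the 86 tested members (left) and number of members above their own 18-library median (right) in each library, with old ouabain, old vehicle and young from left to right; numbers are replicates and bars group means. All 6 ouabain livers have at least 49 of 86 members above the median, whereas vehicle livers range from 3 to 66 and young livers from 16 to 78.

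The second comparison, old vehicle against young livers, sets age and handling together. Few members differed: Uqcrc1, Ndufa10, Ndufv1, Atp5g1 and Ndufa4l2 fell in old vehicle livers and Atp5s rose. These are 6 of 86 members (6.98%) at an edgeR adjusted p under 0.05, while 19.2% of all genes tested were called, 10.9% higher and 8.32% lower. At an unadjusted p under 0.05, 1 of 86 was higher and 10 lower, together 12.8% of members beside 31.9% of all genes. The median log2 fold change was -0.05, beside -0.01 over all genes, and 32 of 86 members (37.2%) were above 0. Other genes of at least 5 in mean log2 CPM were close to the members, with a median of -0.06 and 38.5% above 0. Without young replicate 1 the members' median was 0.02, and with scaling by library totals alone it was 0.04, so the sign of the median rests on that library and on the scaling. The fit without young replicate 1 called 6 of 86 members higher and 5 lower, beside 11.6% and 9.62% of all genes.

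Uqcrc1 had 166, 183, 175, 158, 160 and 204 CPM in vehicle livers, against 239, 223, 230, 201, 212 and 222 CPM in young livers. Vehicle replicate 6 alone reached the young range, and the log2 fold change was -0.34 (SE 0.07, adjusted p = 0.00277). Atp5g1 had 109 to 126 CPM in vehicle livers (median 117) and 127 to 176 CPM in young livers (median 134), without overlap, and fell by 0.27 on the log2 scale (adjusted p = 0.0192). Ndufv1 had 130 to 155 CPM in vehicle livers (median 151) and 158 to 201 CPM in young livers (median 170), also without overlap, and fell by 0.22 (adjusted p = 0.0366). Ndufa10 had 99.9 to 123 CPM in vehicle livers (median 113) and 118 to 138 CPM in young livers (median 136), which overlap, and fell by 0.24 (adjusted p = 0.0139). Scaling by library totals alone ended the calls of Atp5g1 (adjusted p = 0.134), Ndufv1 (0.262) and Ndufa10 (0.148). Ndufv1 also lost its call in 8 of 18 fits without 1 library (adjusted p up to 0.101) and in 7 of 12 other settings in all, among them upper quartile scaling (0.119) and the replicate block (0.0528). Atp5g1 lost its call in 5 of 12 settings and Ndufa10 in 2, while Uqcrc1 was called in all 18 fits without 1 library and in 12 of 12 other settings. Members with all 6 vehicle livers below all 6 young livers were Atp5g1, Ndufa12 and Ndufv1, 3 of 86 beside 2.6% of all genes tested, and 0 had the reverse, beside 4.59%.

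Ndufa4l2 (ENSMUSG00000040280, chromosome 10), a hypoxia-induced relative of Ndufa4, showed the largest change of any member. It had 2.01, 1.13, 1.01, 1.34, 1.95 and 1.41 CPM in vehicle livers, against 2.25, 3.65, 1.99, 5.84, 2.49 and 2.62 CPM in young livers. The groups overlap only where vehicle replicate 1 lies just above young replicate 3, and the values rest on 10 to 20 counts per vehicle library and 20 to 51 per young library. The log2 fold change was -1.08 (SE 0.28, adjusted p = 0.0084), between -1.19 and -0.82 when 1 library was left out. In ouabain livers it had 3.03, 1.30, 2.28, 1.96, 1.63 and 2.33 CPM (log2 fold change 0.52 against vehicle, SE 0.29, adjusted p = 0.317). Ndufa4 itself was at 306 ± 14.3 CPM in ouabain, 292 ± 41.4 CPM in vehicle and 318 ± 45.0 CPM in young livers.

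Atp5s (ENSMUSG00000054894, chromosome 12) was the 1 member that rose in old vehicle livers. It had 6.84, 7.88, 5.88, 5.08, 6.56 and 7.05 CPM there, against 5.19, 5.20, 3.88, 3.78, 4.54 and 4.74 CPM in young livers. Vehicle replicate 4 alone fell within the young range, and the log2 fold change was 0.52 (SE 0.14, adjusted p = 0.00996). Thinning all libraries to the shallowest ended this call (adjusted p = 0.0745). Atpif1, the inhibitor of ATP synthase, is not a member by its symbol; it too rose, with 25.1 ± 3.41 CPM in vehicle and 18.5 ± 2.88 CPM in young livers (log2 fold change 0.44, adjusted p = 0.0240). Cyc1 fell, with 127 ± 16.9 CPM in vehicle and 160 ± 9.29 CPM in young livers (log2 fold change -0.33, adjusted p = 0.00710).

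The remaining members tested were not called in vehicle against young livers. Complex medians of the log2 fold change were -0.04 in complex I, -0.04 in complex II, 0.02 in complex III, -0.12 in complex IV and -0.05 in complex V; over 31 settings only complex IV kept its sign (-0.19 to -0.03). Atp5b averaged 959 ± 83.6 CPM in vehicle livers and 1111 ± 106 CPM in young livers (log2 fold change -0.21, adjusted p = 0.0732), and Cox7a2 at 120 ± 14.5 and 138 ± 20.1 CPM (adjusted p = 0.126). Sdha averaged 436 ± 41.8 CPM in vehicle livers and 481 ± 43.5 CPM in young livers, and Ndufs1 at 115 ± 12.7 and 112 ± 13.6 CPM. The highest fitted value of complex I was that of Ndufa2, an accessory subunit, with 162 ± 19.0 CPM in vehicle and 135 ± 41.4 CPM in young livers (log2 fold change 0.26, adjusted p = 0.258).

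The third comparison sets old ouabain livers against young livers. No member passed the edgeR test, where 1.12% of all genes tested were called (0.738% higher and 0.387% lower); at an unadjusted p under 0.05 there were 11 higher and 1 lower of 86 (14.0%), below the 16.5% of all genes. DESeq2 and limma voom also called 0, and voom with quality weights called 10 higher. The median log2 fold change was 0.11, with 68 of 86 members above 0 beside 48.8% of all genes. Other genes of at least 5 in mean log2 CPM had 42.4% above 0 and a median of -0.03. Without young replicate 1, 19 of 86 members were called higher, beside 2.42% of all genes, and the members' median was 0.17, so the absence of calls rests on that library.

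The 3 comparisons share their groups, so the values of the members called elsewhere are set side by side here. Uqcrc1 was at 227 ± 12.4 CPM in ouabain livers and 221 ± 13.4 CPM in young livers (log2 fold change 0.04, SE 0.07). Ndufa10 was at 133 ± 4.18 and 132 ± 8.21 CPM, Ndufv1 at 183 ± 10.9 and 172 ± 16.0 CPM, and Atp5g1 at 147 ± 7.44 and 140 ± 18.1 CPM in the same groups. Cox5b was at 154 ± 10.2 CPM in ouabain and 132 ± 12.3 CPM in young livers (log2 fold change 0.22, adjusted p = 0.165). No member had all 6 ouabain livers above all 6 young livers, beside 1.48% of all genes tested, or below them, beside 0.717%. The largest fitted values were those of the complex I accessory subunits Ndufb7 (0.37, adjusted p = 0.139) and Ndufa5 (0.37, adjusted p = 0.137), Atp5j2, the f subunit of ATP synthase (0.34, adjusted p = 0.158), and Uqcr11 of complex III (0.32, adjusted p = 0.0975). Ndufa4l2 had the lowest, at -0.57 (adjusted p = 0.300).

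Exon length was examined because members are short, with a median of 1486.5 bases, beside 4033 bases over all genes tested. For ouabain against vehicle, members had a median log2 fold change of 0.12 up to 600 bases, 0.17 from 600 to 1000, 0.17 from 1000 to 2000, 0.14 from 2000 to 4000 and 0.18 above 4000 bases. These bins held 12, 14, 31, 19 and 10 members, so all but the middle one are thinly filled. Other genes of at least 5 in mean log2 CPM had 0.05, 0.03, 0.06, 0.05 and 0.02 in the same bins, so members lay above them in every bin. Length here is the union of a gene's annotated exons, which can exceed the length of its transcripts. The long bins, with Atp5l at 6443 and Ndufb2 at 5628 bases, may therefore hold short transcripts. For vehicle against young livers the values changed with length in both sets, from -0.02 to -0.13 in members and from 0.08 to -0.10 in the others, with members lower in every bin. Over all lengths together, members were at -0.05 and the others at -0.06. For ouabain against young livers members ran from 0.12 to 0.02 and the others from 0.09 to -0.08. Some libraries also moved with length: in young replicate 1 members deviated by 0.31 from their 18-library median and other abundant genes of up to 1000 bases by 0.26, and in young replicate 5 by -0.16 and -0.25. The same held in old livers, by 0.25 and 0.15 in ouabain replicate 2 and by 0.11 and 0.11 in vehicle replicate 1. Of the low vehicle libraries, replicates 3 and 4 differed from this: members deviated by -0.16 and -0.20, where the other short genes deviated by 0.01 and -0.05. In vehicle replicate 2, also low, members deviated by -0.09 and the other short genes by -0.05. Without ouabain replicate 2 the members' median for ouabain against vehicle was 0.12, beside 0.16 with all libraries. The part of length in the members' values was not tested.

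**Figure D4:**
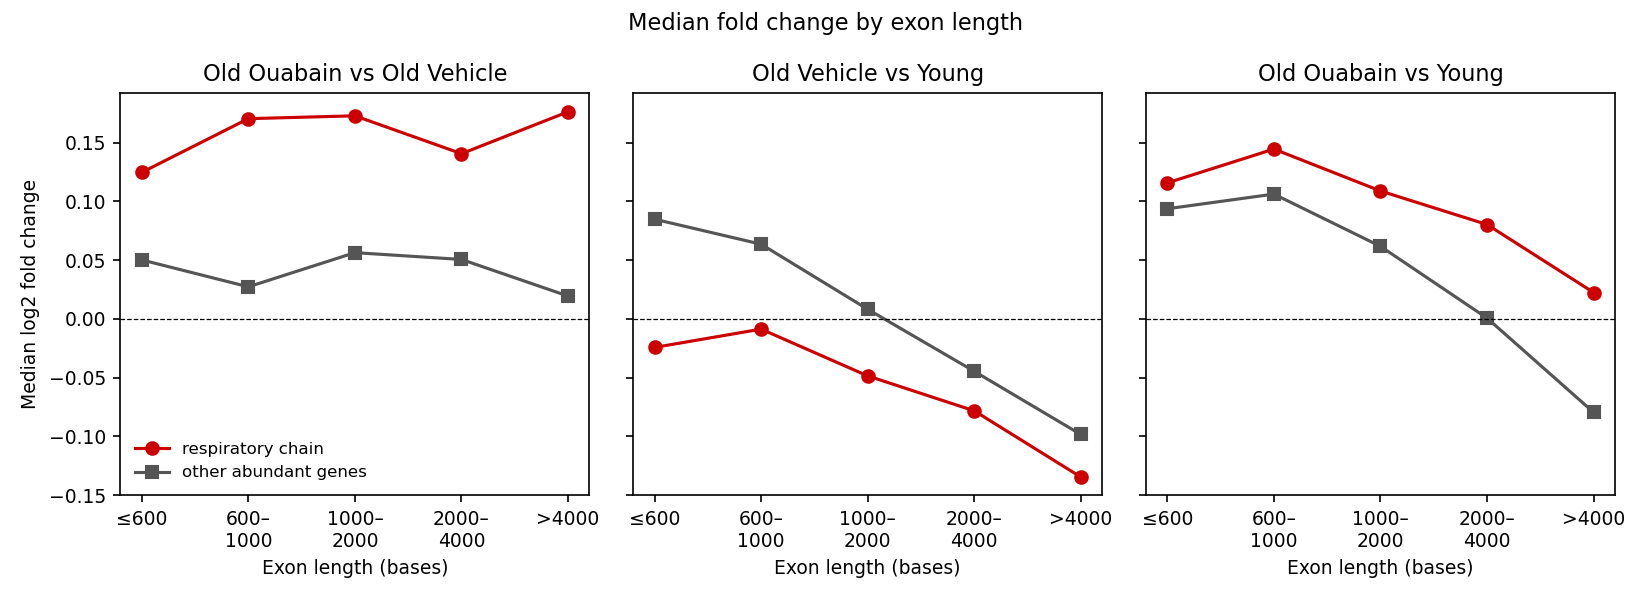
Median log2 fold change by exon length for members (red circles) and for other genes of mean log2 CPM 5 or more (grey squares), in the 3 comparisons; the horizontal axis gives 5 bins of length in bases. In the ouabain to vehicle panel members lie at 0.12 to 0.18 and other genes at 0.02 to 0.06, with no trend over length in either, whereas both lines slope down in the panels against young livers.

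Genes that serve the same chain were set beside the members. Over all genes tested, 1.84% were called for ouabain against vehicle and 19.2% for vehicle against young, and 20.1%, 31.9% and 16.5% had an unadjusted p under 0.05 for ouabain against vehicle, vehicle against young and ouabain against young. Of 48 assembly factors tested, 0 rose and 1 fell in ouabain against vehicle livers (median 0.15): Acad9, a factor for complex I that is also an acyl-CoA dehydrogenase, at 67.7 ± 7.87 CPM in ouabain and 86.3 ± 10.1 CPM in vehicle livers (log2 fold change -0.35, adjusted p = 0.0424). In vehicle against young livers 2 rose and 7 fell (18.8% of the list, near the share of all genes; median -0.11), with Acad9 higher by 0.77 (adjusted p = 9.86e-06) and the complex I factor Ndufaf4 averaging 18.1 CPM in vehicle and 31.6 CPM in young livers (log2 fold change -0.80, adjusted p = 0.00362). Of 73 mitochondrial ribosomal proteins, 2 rose in ouabain against vehicle livers and 0 fell (median 0.15), led by Mrpl38 at 51.2 ± 6.03 and 38.1 ± 1.22 CPM; in vehicle against young livers 1 rose and 8 fell (median -0.07). Electron carriers and coenzyme Q enzymes had 0 of 19 called for ouabain against vehicle (2 at an unadjusted p under 0.05, median 0.11), and 1 higher and 2 lower for vehicle against young (Coq10a at 0.32, Coq3 at -0.42 and Coq5 at -0.32). Tricarboxylic acid cycle enzymes had 0 of 13 called for ouabain (4 at an unadjusted p under 0.05, median 0.12) and 0 higher and 2 lower for vehicle against young, Idh3b and Suclg1, each at -0.31.

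The 13 protein-coding genes of the mitochondrial genome, which supply the remaining subunits, had 0 calls by edgeR in each comparison (4, 0 and 8 at an unadjusted p under 0.05) and medians of -0.18 for ouabain against vehicle, -0.13 for vehicle against young and -0.26 for ouabain against young. Their summed level was 42451 to 56668 CPM in ouabain, 38321 to 60921 CPM in vehicle and 53611 to 63245 CPM in young livers. The ranges of ouabain and vehicle livers overlapped widely, whereas the ouabain median (49346 CPM) lay below the lowest young liver. For ouabain against young livers, 0 of the 13 genes had a fitted value above 0. In that comparison 61.5% of them had an unadjusted p under 0.05 by edgeR, beside 16.5% of all genes tested. Among 17 regulators of mitochondrial biogenesis, such as Ppargc1a, Nrf1 and Tfam, edgeR called 0 in each comparison (5, 2 and 0 at an unadjusted p under 0.05), with medians of 0.10, -0.09 and 0.04. Carriers of the mitochondrial membranes had 0 of 13 called for ouabain against vehicle (3 at an unadjusted p under 0.05) and 1 higher and 2 lower for vehicle against young, the adenine nucleotide carrier Slc25a4 at 0.50, the acylcarnitine carrier Slc25a20 at -0.51 and the aspartate-glutamate carrier Slc25a13 at -0.29. Cytosolic ribosomal proteins had a median of -0.01 for ouabain against vehicle over 84 genes, 0.13 for vehicle against young and 0.11 for ouabain against young.

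**Figure D5:**
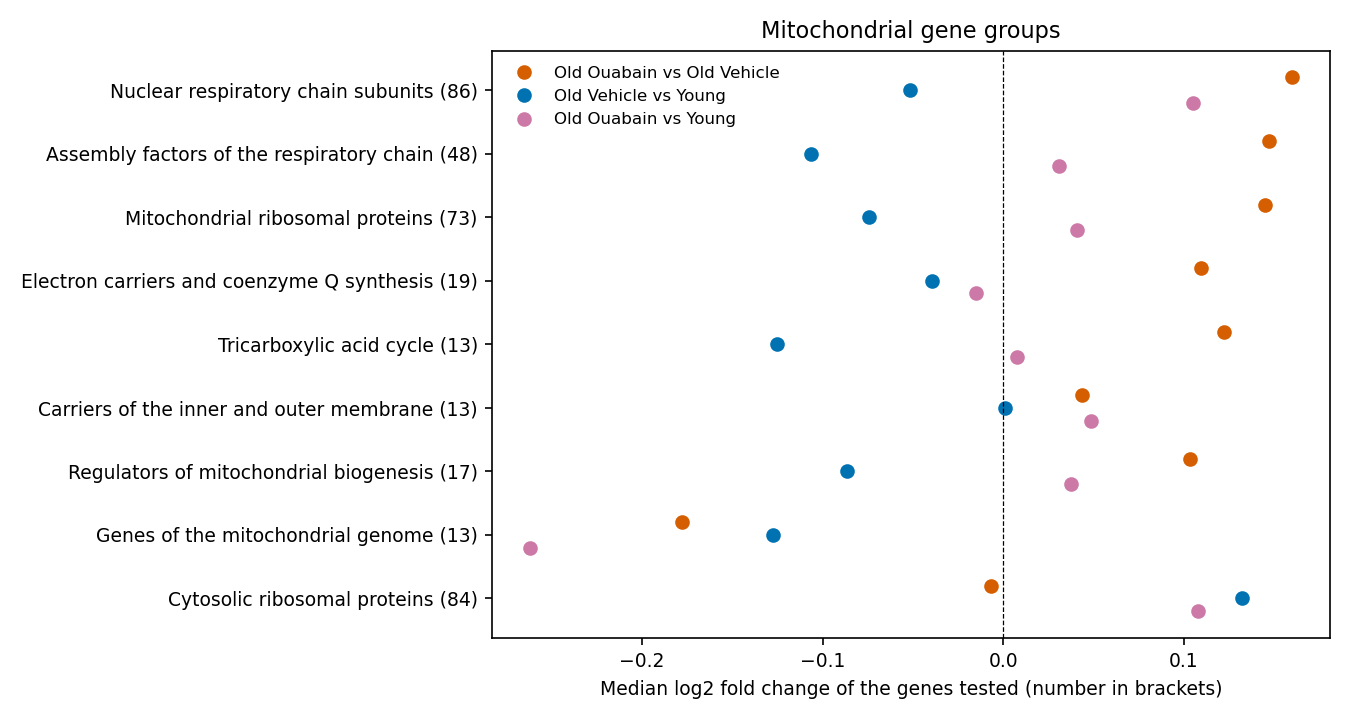
Median log2 fold change of the tested genes of each group, with the number tested in brackets, for old ouabain over old vehicle (orange), old vehicle over young (blue) and old ouabain over young (pink). For ouabain over vehicle the respiratory chain subunits lie at 0.16, assembly factors and mitochondrial ribosomal proteins at 0.15, cytosolic ribosomal proteins at -0.01 and genes of the mitochondrial genome at -0.18.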

How the data were processed

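RNA from 18 flash-frozen livers (6 libraries a group) was sequenced. The authors deposited unnormalized counts, 1 table with a row per Ensembl gene. The submitters' processing notes name TopHat2 2.0.11, featureCounts and the build mm9. The sources used here do not give the annotation release, the strand setting or the treatment of shared reads, so pseudogenes and overlapping genes are uncertain. Columns were matched to samples by title. Symbols were found for 32897 identifiers; 4723 had none and stayed in the totals.

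Counts were fitted with edgeR 4.0.16 in R 4.3.3 (TMM factors, filter at a minimum count of 10, all 18 libraries in 1 fit, robust quasi-likelihood F-test, two-sided), and p-values were adjusted by Benjamini-Hochberg over the 14226 genes tested, with calls below 0.05. All adjusted p-values of the report come from this fit unless another tool is named. Standard errors are approximate, from the fold change and F. CPM values are TMM-scaled. Lengths are the union of exons in GENCODE M21. No gene set test was used; lists are described by counts and medians. Chi-square per gene between libraries of a group was 5.31 to 58.1, where sampling noise gives about 1, so no pair was treated as 1 library. Neither batch nor date is in the labels.

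Members, pathway and marker lists, the genes named and the libraries doubted were chosen with earlier results of these data known; the promoter motifs, the length bins and the fit without the 9 pseudogenes were added after seeing the values. Members named were fixed subunits and isoforms of each complex, called members, and the highest and lowest fold change of each complex in each comparison, and non-members up to 3 called per list, those with the smallest adjusted p; Cyc1, Atp5o, Ndufa5 and Ndufa12 were named after their values were seen, and 1 member that the rule names is not reported here. The alternatives were other scalings and filters, DESeq2 1.42.0, limma 3.58.1 voom, plain or with quality weights, a fit to the 12 libraries of each comparison, a replicate block, thinning to 4201251 counts, leaving out doubted libraries together and leaving out each library. The fit was tested on simulated counts.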

Additional observations from a re-analysis of the deposited data

Results flagged for a closer look

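Groups of the named members share the same 18 libraries, and many members moved together, so the groups are not independent. The rate of about 1 in 20 that chance gives for independent groups therefore cannot be set against their count. In groups of 6 libraries, 14 of 108 groups of the named members held a library far from the others (Dixon's test at the 95% level). Most of these were high values in young replicate 1: Atp5e at 380 CPM (next highest young library 230 CPM), Atp5g1 at 176 CPM, Atp5j2 at 192 CPM, Cox4i1 at 625 CPM, Cox6a1 at 300.2 CPM, Cox6b1 at 290.5 CPM, Cox7a2 at 178 CPM, Cox7a2l at 98.6 CPM and Ndufs7 at 93.1 CPM. Old vehicle replicate 1 was the highest vehicle library for Ndufa1 (76.0 CPM). Old ouabain replicate 2 was the highest ouabain library for Ndufa4 (335 CPM) and Sdhb (274 CPM) and the lowest for Sdha (442 CPM). Old vehicle replicate 3 was the lowest vehicle library for Uqcr11 (153 CPM, next 172 CPM).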

How the results depend on the processing

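The direction of the members' median was above 0 for ouabain against vehicle in every setting run (0.12 to 0.21), as was each complex median (0.05 to 0.23 over 31 settings), while the number of calls was not stable. For members higher in ouabain than vehicle livers (5), the count was 1 to 8 when 1 library was left out, 3 with relative log expression factors, 1 with library totals alone, 1 with upper quartile scaling, 1 with no filter, 8 with DESeq2, 13 with voom quality weights, 3 with the 12 libraries compared, 0 without both libraries that stood apart and 2 after thinning. The share of all genes called moved too: it was 1.84% in the fit reported, 4.17% with DESeq2, 7.04% with voom quality weights, 0.739% with no filter, 0.595% without both libraries that stood apart, and 0.48% to 4.47% when 1 library was left out. This share was 1.78% with relative log expression factors, 1.59% with library totals alone and 1.71% with upper quartile scaling. With the 12 libraries compared it was 1.54%, and after thinning 1.33%. Leaving out any single ouabain library except replicate 1 gave 1 call, and vehicle replicates 2 and 3 likewise; without vehicle replicates 1, 4 or 5 there were 2, without young replicates 3 to 6 there were 3, and without young replicate 1 there were 8. For vehicle against young livers, the count of members higher (1) was 1 to 6 without 1 library, 2 with voom quality weights and 0 after thinning. The count of members lower (5) was 4 to 7 without 1 library, 2 with library totals alone, 3 with upper quartile scaling, 2 with the 12 libraries compared, 3 without both libraries that stood apart and 3 after thinning. Of all genes, 19.2% were called in the fit reported for this comparison and 14.5% to 21.3% without 1 library. It was 22.6% with voom quality weights, 18.9% with library totals alone, 18.1% with upper quartile scaling and 14.6% with the 12 libraries compared. Without both libraries that stood apart it was 16.5%, and after thinning 14.5%. For ouabain against young livers, members higher (0) were 0 to 19 without 1 library, where 0.355% to 4.25% of all genes were called. They were 1 with library totals alone (1.29% of all genes called) and 10 with voom quality weights (3.74%), beside 1.12% in the fit reported. The causes of these shifts were not tested. Leaving out the pseudogenes removed no called member.

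Replicate numbers did not pair the libraries: deviations of same-numbered ouabain and vehicle libraries correlated at -0.121 to 0.158. With the replicate block, 3 members were higher in ouabain than vehicle livers (1.69% of all genes called). The same fit gave 1 higher and 4 lower in vehicle than young livers (17.7% of all genes called). Library totals alone also moved the split of calls over all genes, to 82 higher and 144 lower for ouabain against vehicle (141 and 121 with TMM), 2131 and 562 for vehicle against young (1549 and 1184) and 166 and 18 for ouabain against young (105 and 55). Depth limits Ndufa4l2, Atp5s and Cox7a1, and leaves Cox4i2, Cox6b2, Cox8b and Atp5k-ps2 below the filter.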

Other observations

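Markers of other cell types, set beside the members, gave these edgeR calls. Of all genes tested, 1.84% were called for ouabain against vehicle and 1.12% for ouabain against young. For vehicle against young 19.2% were called, 10.9% higher and 8.32% lower. T and NK cell markers (3 tested) had 0 called for ouabain against vehicle and 3 higher for vehicle against young; B and plasma cell markers (6 tested) had 0 called for ouabain against vehicle, 4 higher for vehicle against young and 3 higher for ouabain against young. Kupffer cell markers (6 tested) had 0 called for ouabain against vehicle (median -0.66 on the log2 scale) and 4 higher for vehicle against young. Hepatocyte markers (10 tested) had 0 called for ouabain against vehicle, and 1 higher and 4 lower for vehicle against young. Hepatic stellate markers (6 tested) had 1 higher for vehicle against young, and sinusoidal endothelial (6), bile duct (5) and muscle (4) markers had 0 called in each comparison. No fat marker passed the filter. At an unadjusted p under 0.05, ouabain against vehicle gave 7 of 8 monocyte-derived macrophage markers, beside 20.1% of all genes tested. It also gave 3 hepatocyte, 2 Kupffer cell, 2 T and NK cell, 1 stellate and 1 bile duct marker. B and plasma cell, sinusoidal endothelial and muscle markers had 0. The part of these cells in the members' values was not tested.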
